A study of Mus musculus with 12 samples.

Results

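The type I interferon stimulated genes examined here were Isg15, Ifit1, Ifit2, Ifit3, Mx1, Rsad2, Irf7, Usp18 and Oasl2. They were found by their name on the array, as 9 of 37074 gene names and 12 of 56605 probes. RNA from the cecum of C57BL/6 mice was hybridised to 1-colour Agilent arrays, on which the brightness of a spot measures 1 transcript. The 12 arrays fall into 4 groups, each of 3 mice labelled Male, and the labels name no transgene, deletion or age. The sham control had the operation without cautery, with tissue taken at 0 h, and the other groups were taken 3, 12 or 72 h after cauterization of the cecum. The comparison with sham therefore holds the operation, the cautery and the time since either in 1 difference, which cannot be told apart. Values are the log2 brightness of a probe less the 75th percentile of its array, called log2 levels below, and they cannot be compared between probes.

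Type I interferons are a family of secreted proteins that cells release when their sensors detect viral or misplaced nucleic acid. They bind the receptor IFNAR, whose kinases activate a complex of transcription factors that includes IRF9. The complex binds a short DNA element, the interferon-stimulated response element, before the start of its target genes. In the intestine, interferons act on epithelium and on immune cells, and a low level of signalling is maintained by the microbiota in the healthy gut.

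The response element is the DNA that the complex binds. It was looked for in the RefSeq promoter windows (build GRCm38.p6) of 250 bases before to 50 after each start. Its core was searched as GAAANNGAAA or, on the other strand, TTTCNNTTTC, and overlapping matches were counted separately. Of the 9 genes, 7 had a window and Ifit2 had 2, and 4 of these 8 windows held at least 1 match, whereas 3.44% of all 32851 windows did. Among the other interferon stimulated genes described below, 20 of the 39 with a window held a match. The stretches below hold the matches and 15 bases on each side. That of Isg15, a gene on the minus strand of chromosome 4, spans chr4:156200860-156200911. Those of Ifit1 and Ifit3, on the plus strand of chromosome 19, span chr19:34640770-34640828 and chr19:34583358-34583431. That of Rsad2, on the minus strand of chromosome 12, spans chr12:26456548-26456587. The stretches are shown 5′ to 3′ on the strand of the gene, with the matched bases in capitals. On that strand Isg15 matched GAAANNGAAA and the others TTTCNNTTTC.
Isg15: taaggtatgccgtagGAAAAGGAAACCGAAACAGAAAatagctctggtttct
Ifit1: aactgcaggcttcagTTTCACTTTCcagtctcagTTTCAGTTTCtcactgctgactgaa
Ifit3: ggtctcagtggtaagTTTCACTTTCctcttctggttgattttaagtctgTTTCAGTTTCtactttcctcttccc
Rsad2: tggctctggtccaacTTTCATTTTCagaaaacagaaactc
Isg15 held 3 overlapping matches, Ifit1 and Ifit3 held 2 separate ones each and Rsad2 held 1. The windows of Ifit2, Irf7 and Oasl2 held none of these letters, and Mx1 and Usp18 had no window. A match is a description of the sequence and not a site of binding.

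Each probe of the 9 genes was well above background on all 12 arrays, except that the second probes of Mx1 and Rsad2 were so on 11. On each array between 60.2% and 65.2% of all probes were well above background, and no spot was saturated. The arrays lay on 2 slides. The sham and 3 h arrays and 12 h replicates 1 and 2 were on the first, and 12 h replicate 3 and the 72 h arrays on the second, so that slide and the 72 h group can be told apart only through 1 array. Against the label Male, Xist was well above background on each of the 12 arrays. Of the Y-linked genes, Kdm5d was above background on 12 arrays, Uty on 1, and both Eif2s3y and Ddx3y on 0. Markers of the labelled tissue were present, since all 14 epithelial genes were above background in at least 1 group. The number of arrays, 3 per group, limits the precision of every comparison. The p-values measure the spread between these samples, which the paper describes as biological triplicates.

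All 9 genes were lowest at 72 h. Against sham, 5 of the 9 fell at 72 h and 0 rose, where a call needed both a limma adjusted p below 0.05 and a change of more than 2-fold. Over all genes 4.3% were called lower and 4.55% higher at this time. The genes that fell were Ifit1, Usp18, Irf7, Ifit3 and Rsad2, by between 1.51 and 2.44 on the log2 scale. In bulk tissue, fewer cells of a type and less RNA per cell cannot be told apart. The median log2 fold change of the 9 was -1.51, while that of all genes was -0.14. In 7 of the 9 the 3 arrays at 72 h lay below the 3 sham arrays without overlap, as in 24.9% of all genes. Each of these 5 calls was lost with slide as a block, although the sign of the difference stayed negative for all 9 genes in that fit. Without sham replicate 1, sham replicate 3, 72 h replicate 1 or 72 h replicate 2, 3 of the 9 were called.

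**Figure D1:**
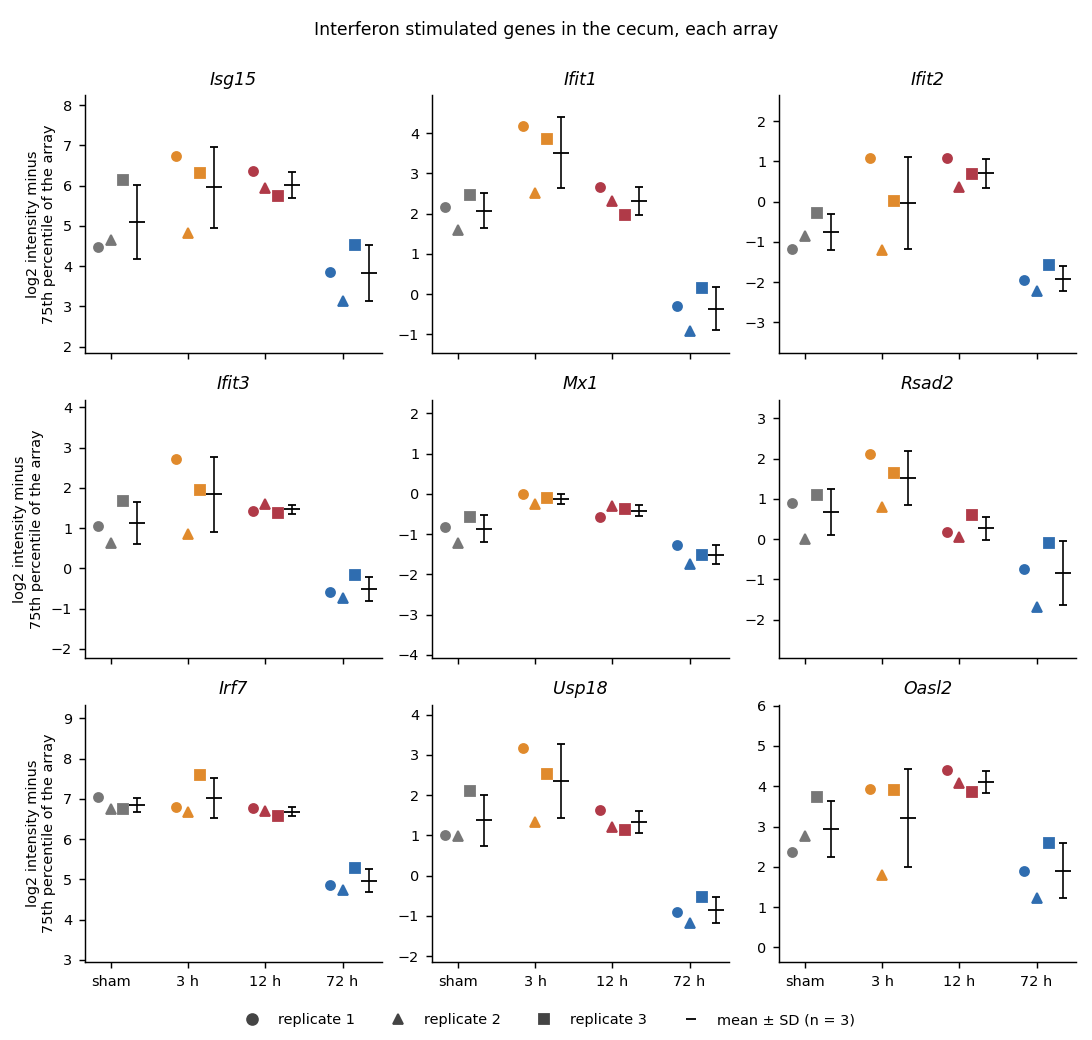
Log2 level (log2 brightness less the 75th percentile of its array) of 9 interferon stimulated genes on each of 12 arrays, by group, with the mean ± SD (n = 3) beside the points. Each panel spans the same range, and the 72 h group has the lowest mean in all 9 panels.

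IFIT proteins bind viral RNA that lacks the marks of the cell's own. Ifit1 had log2 levels of 2.17, 1.60 and 2.47 (sham), 4.18, 2.51 and 3.85 (3 h), 2.67, 2.32 and 1.96 (12 h) and -0.30, -0.92 and 0.14 (72 h). The 3 h arrays were all above and the 72 h arrays all below the sham arrays. The log2 fold change of Ifit1 was 1.44 ± 0.44 (SE) at 3 h (limma adjusted p = 0.0455). At 72 h it was -2.44 ± 0.44 (limma adjusted p = 0.0039), a 5.42-fold fall. It was the only 1 of the 9 genes called at 3 h.

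Ifit3, a partner of IFIT1, had log2 levels of 1.06, 0.64 and 1.68 (sham), 2.72, 0.86 and 1.94 (3 h), 1.44, 1.59 and 1.38 (12 h) and -0.60, -0.74 and -0.16 (72 h). The sham, 3 h and 12 h arrays overlapped, and only the 72 h arrays stood apart. Its log2 fold change at 72 h was -1.63 ± 0.41 (limma adjusted p = 0.0204). The transcript of Ifit3b is nearly the same as that of Ifit3, and the probe of Ifit3 may read both. The probe of Ifit3b had -1.58 at 72 h (limma adjusted p = 0.0187).

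Ifit2 had log2 levels of -1.16, -0.85 and -0.27 (sham), 1.09, -1.20 and 0.01 (3 h), 1.08, 0.37 and 0.68 (12 h) and -1.95, -2.21 and -1.58 (72 h). The 12 h arrays were all above and the 72 h arrays all below sham, but neither difference passed the test, with log2 fold changes of 1.47 ± 0.49 (limma adjusted p = 0.0577) and -1.15 ± 0.49 (limma adjusted p = 0.131). The 3 IFIT genes lie near each other on chromosome 19, where their probes start at 34650244 for Ifit2, 34663105 for Ifit3 and 34723827 for Ifit1 (build mm9). Their order over time was not the same, since Ifit2 had its highest mean at 12 h and Ifit1 and Ifit3 had theirs at 3 h, but 12 h and 3 h did not differ by the test in any of these genes.

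Isg15 encodes a small protein that is attached to other proteins as ubiquitin is, and Usp18 encodes the protease that removes it and that also restrains signalling at IFNAR. Usp18 had log2 levels of 1.02, 0.99 and 2.11 (sham), 3.17, 1.35 and 2.54 (3 h), 1.64, 1.20 and 1.14 (12 h) and -0.89, -1.16 and -0.52 (72 h). The 72 h arrays were below every other array, and the log2 fold change was -2.23 ± 0.44 (limma adjusted p = 0.00652), a 4.7-fold fall. Isg15 had log2 levels of 4.48, 4.64 and 6.15 (sham), 6.73, 4.82 and 6.32 (3 h), 6.37, 5.93 and 5.75 (12 h) and 3.86, 3.12 and 4.52 (72 h). Sham replicate 3 lay above the other two, among the 12 h arrays, and sham and 72 h overlapped. The difference of Isg15 at 72 h, -1.25 ± 0.57, did not pass the test (limma adjusted p = 0.163).

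Irf7 encodes the transcription factor that drives a second wave of interferon transcription. Its log2 levels were 7.04, 6.74 and 6.76 (sham), 6.81, 6.67 and 7.60 (3 h), 6.78, 6.71 and 6.57 (12 h) and 4.86, 4.74 and 5.29 (72 h). Apart from the higher 3 h replicate 3, the sham, 3 h and 12 h arrays lay close together, and the 72 h arrays lay below all of them. Its log2 fold change at 72 h was -1.88 ± 0.24 (limma adjusted p = 0.000633), the smallest adjusted p of the 9 genes. At 3 h and 12 h the differences of Irf7 from sham were 0.18 and -0.16. The second probe of Irf7 gave -2.06 at 72 h (limma adjusted p = 0.000952).

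Rsad2 encodes viperin, an enzyme that makes a nucleotide which stops viral RNA synthesis. Its log2 levels were 0.90, 0.01 and 1.09 (sham), 2.11, 0.80 and 1.64 (3 h), 0.16, 0.05 and 0.59 (12 h) and -0.75, -1.68 and -0.10 (72 h). The 72 h arrays lay below all the others, the highest of them just below the lowest sham array. The log2 fold change was -1.51 ± 0.45 (limma adjusted p = 0.0401), and the second probe of Rsad2 gave -1.65 (limma adjusted p = 0.0477).

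Mx1 encodes a GTPase that traps viral ribonucleoprotein, and RefSeq lists its locus in GRCm38.p6 as a transcribed pseudogene. Its log2 levels were -0.82, -1.22 and -0.56 (sham), -0.01, -0.25 and -0.10 (3 h), -0.57, -0.31 and -0.38 (12 h) and -1.27, -1.74 and -1.52 (72 h). Its 72 h arrays lay below the others without overlap. The 3 h difference of 0.75 ± 0.18 (limma adjusted p = 0.0169) and the 72 h difference of -0.64 ± 0.18 (limma adjusted p = 0.0321) were below a fold of 2, so that neither was called. The second probe of Mx1 had 0.49 and -0.54, with adjusted p-values in limma of 0.16 and 0.126.

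Oasl2 encodes a protein of the oligoadenylate synthetase family. Its log2 levels were 2.37, 2.75 and 3.72 (sham), 3.92, 1.80 and 3.91 (3 h), 4.40, 4.07 and 3.85 (12 h) and 1.90, 1.22 and 2.60 (72 h). The 72 h arrays overlapped sham and 3 h but not 12 h. None of its differences from sham passed the test, with log2 fold changes of 0.26, 1.16 and -1.04 (limma adjusted p between 0.205 and 0.784).

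**Figure D2:**
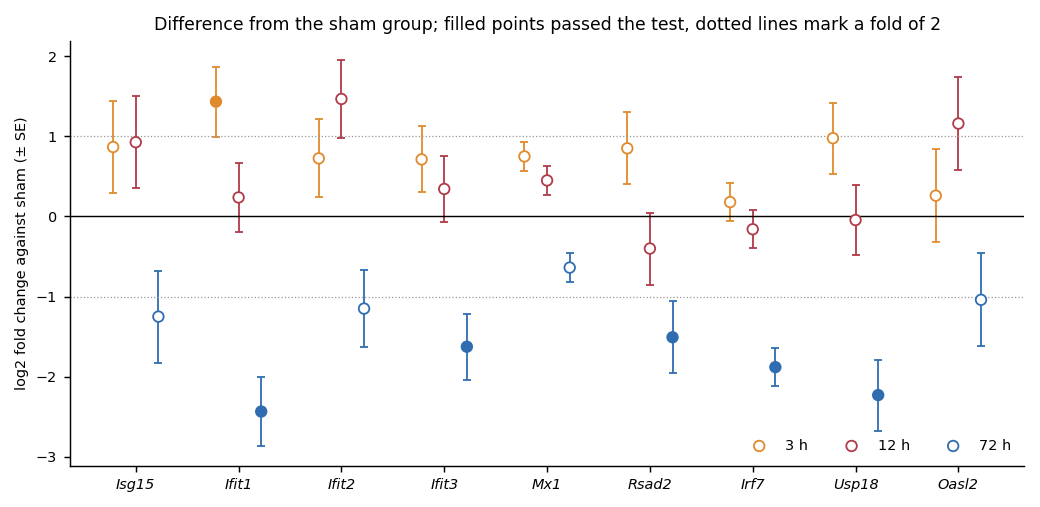
Log2 fold change against sham (± SE) of each of the 9 genes at 3, 12 and 72 h; filled points were called at a fold above 2 and a limma adjusted p below 0.05, and dotted lines mark a fold of 2. All 9 values at 72 h lie below 0, of which 5 are filled, and 1 value at 3 h is filled.

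Early after cautery the 9 genes moved little beyond the spread between mice. At 3 h, 1 of 9 was called higher and 0 lower, where 3.26% and 4.11% of all genes were. All 9 log2 fold changes were above 0, between 0.18 and 1.44 with a median of 0.75, against 0.08 for all genes. Only Ifit1 and Mx1 had 3 h arrays that did not overlap sham, as 28.8% of all genes did in this direction. The call of Ifit1 was lost in 16 of the alternatives, among them quantile normalization (1.26, limma adjusted p = 0.0748) and the fit without sham replicate 2 (1.19, limma adjusted p = 0.147). Without 3 h replicate 2, on which all 9 genes had the lowest level of that group, 4 of the 9 genes were called higher, namely Ifit1, Ifit2, Ifit3 and Usp18.

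At 12 h, 0 of the 9 genes were called in either direction in limma, where 4.1% of all genes were called higher and 4.96% lower. At an unadjusted p below 0.05 there were 2, where 32.4% of all genes were. The methods' t-test, which pairs same-numbered arrays, and Dunnett's test gave 0. The median log2 fold change was 0.34, with a range from -0.40 for Rsad2 to 1.47 for Ifit2. In a fit with only the sham and 12 h arrays Ifit2 was called higher (limma adjusted p = 0.0191). Between 12 h and 3 h, 0 of the 9 differed, where 3.46% of all genes did, and 3 had an unadjusted p below 0.05, as 24.1% of all genes had. The mean was highest at 3 h in 6 genes and at 12 h in 3, an order that this test did not separate.

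From 3 h to 12 h, 6 of the 9 genes had a lower mean and 3 a higher one, with none called. Rsad2 had -1.25, Ifit1 -1.20 and Usp18 -1.02 on the log2 scale there. From 12 h to 72 h all 9 fell. Of the 9 genes, 8 were called, each with its lower level at 72 h, where 3.19% of all genes were called lower and 4.33% higher. The arrays of both times did not overlap in any of the 9, as in 24.1% of all genes. The log2 differences ranged from -2.68 for Ifit1 to -1.09 for Mx1, with a median of -2.18. Only Rsad2, at -1.11 ± 0.45 (limma adjusted p = 0.122), was not called. Without 72 h replicate 2 the count was 5. Against 3 h, 8 of the 9 were called lower, where 5.51% of all genes were, and in 8 the arrays did not overlap, as in 41.6% of all genes. Only Oasl2, at -1.30 (limma adjusted p = 0.103), was not called there, and Ifit1 had the largest difference, -3.87 (limma adjusted p = 0.000242). The 72 h arrays take part in each of these comparisons, which are therefore not independent of one another.

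The slide touches each comparison of the 72 h group. With slide as a block, 0 of the 9 genes were called at 72 h against sham, 0 against 3 h and 1, Irf7, against 12 h. In that fit the log2 fold change against sham was -1.90 ± 0.80 for Ifit1 (limma adjusted p = 0.244), -1.95 ± 0.84 for Usp18 (limma adjusted p = 0.248) and -1.71 ± 0.44 for Irf7 (limma adjusted p = 0.0774). Over all genes the block left 3.11% called at 72 h, fewer than without it. Within the second slide the 72 h arrays can be set against 12 h replicate 3 alone. There all 9 genes were lower at 72 h, by a median of 1.91 on the log2 scale, and 0 were called in a fit that takes the single 12 h array to vary as the 72 h arrays do.

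**Figure D3:**
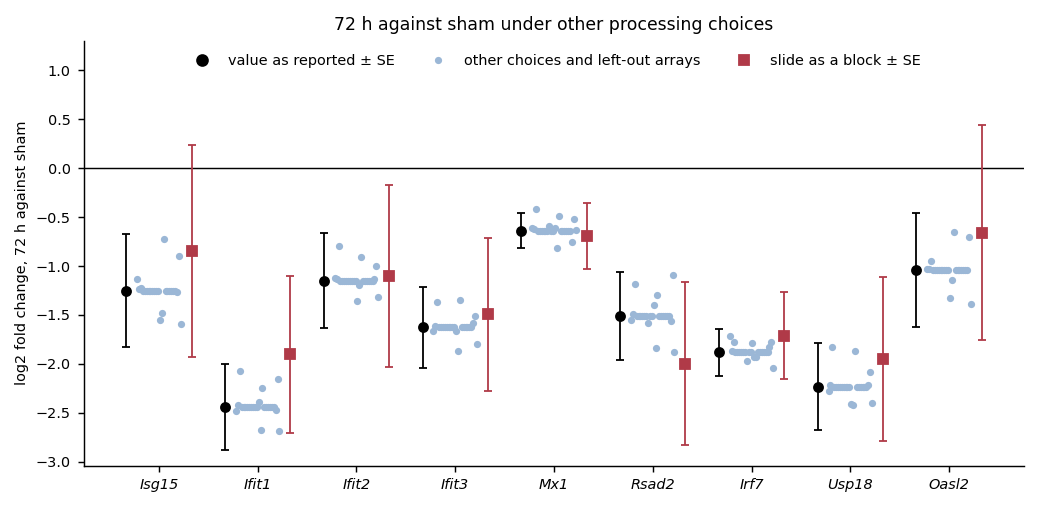
Log2 fold change of the 9 genes at 72 h against sham as reported (black, ± SE), under the other processing choices and left-out arrays (small points), and with slide as a block (squares, ± SE). All values lie below 0, and the bars of the block are wider than those of the reported values.

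Several cell marker lists differed from sham at 72 h, and some of them did so earlier. Of 14 epithelial markers 4 were called lower at 72 h and 0 higher, and their mean log2 level was between 5.82 and 6.26 there, against 6.91 to 7.01 in sham. Aqp8, a water channel of absorptive cells, had -2.95 (limma adjusted p = 8.42e-06). Of 8 smooth muscle markers 6 were called lower, and of 12 monocyte and macrophage markers 8 were called higher, with a mean log2 level between 3.00 and 3.22 against 1.61 to 1.71 in sham. Mesothelial markers were called higher in 4 of 8. Among 8 markers of plasmacytoid dendritic cells, known as strong producers of type I interferon, 1 was called higher and 0 lower. Neutrophil markers were called higher in 8 of 12, with a mean log2 level between 1.16 and 2.28 against -2.84 to -2.06 in sham, and endothelial markers in 3 of 6. Of 8 T cell and 8 B cell markers 0 were called at 72 h in limma, with 2 and 1 at an unadjusted p below 0.05. None of these lists held a marker that was above background on 0 arrays. The counts at 72 h in the fit with slide as a block were 1 lower for epithelium, 8 lower for smooth muscle, and 5, 5 and 2 higher for monocyte and macrophage, neutrophil and mesothelial markers, with 0 for endothelium and plasmacytoid dendritic cells. At 3 h and 12 h neutrophil markers were called higher in 7 and 10 of 12, with or without the block. Smooth muscle markers were called lower in 2 and 8 of 8 at those times in both fits. The part of the cells of these lists in the fall of the 9 genes was not tested.

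Mice of the same group differed from each other in most of the 9 genes at once. After the group means were subtracted, Pearson's r between 2 of the genes over the 12 arrays had a median of 0.75 over 36 pairs, from 0.11 for Mx1 and Irf7 to 0.97 for Isg15 and Oasl2. The arrays share their hybridisation and scaling, so these values are a description. On 3 h replicate 2 all 9 genes were below their group mean, by a median of 1.01 on the log2 scale, and on 3 h replicate 1 8 of the 9 were above it, by a median of 0.71. In the sham group 8 of the 9 were above the mean on replicate 3 and 0 on replicate 2. The 12 h mice differed least, with medians between -0.11 and 0.29.

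**Figure D4:**
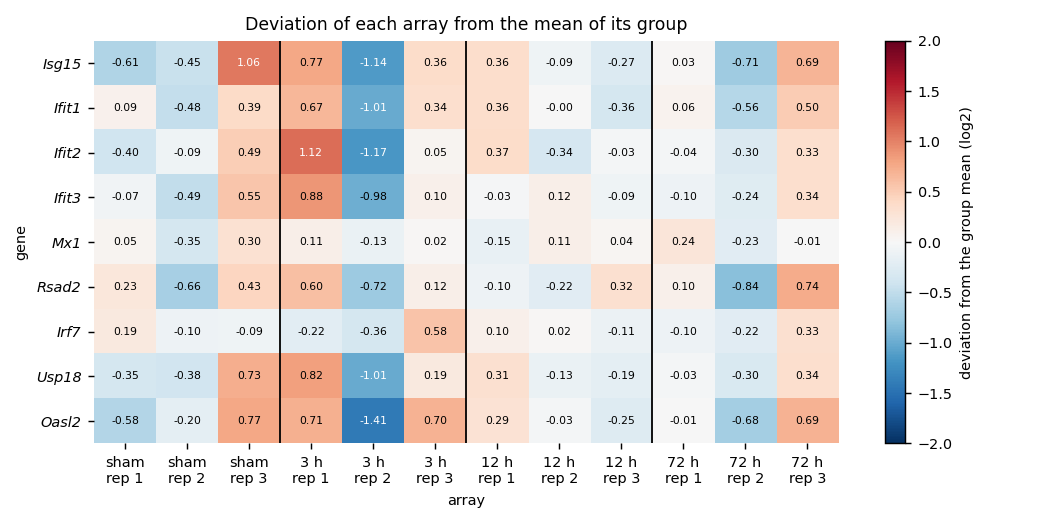
Deviation of each array from the mean of its group, in log2 units, for 9 genes (rows) and 12 arrays (columns), with black lines between groups. The column of 3 h replicate 2 is below 0 for all 9 genes, and the medians of the 12 h columns lie between -0.11 and 0.29.

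The same pattern was looked for in 23807 other genes that were well above background on all arrays of at least 1 group. The 5 genes most like the mean of the 9 over the 12 arrays were Xaf1 (Pearson's r = 0.99), Lgals3bp (0.98), Rtp4 (0.97), Ifi35 (0.97) and Ifit3b (0.97). Of the 30 most alike, 13 were in the interferon lists, whose share of the 23807 genes was not counted. The 72 h group, and with it the slide, enters these values, and the probe of Ifit3 may read Ifit3b too. After group means were subtracted, the first 5 were Trim34b, Rtp4, Epsti1, Xaf1 and Gm9706, with r between 0.96 and 0.97, and 17 of the first 30 were in those lists. Xaf1, which encodes an antagonist of an inhibitor of apoptosis, was called lower at 72 h (-1.28, limma adjusted p = 0.04).

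The ligands were near the limit of what these arrays measured. Of 17 type I and III interferon genes on the array, 9 were above background on all arrays of at least 1 group. Ifnb1, the first interferon that most cells make, was above background on 0 of 12 arrays, so that no fold change is given. In limma 0 of the 17 were called against sham at 3, 12 or 72 h, with 5, 0 and 6 at an unadjusted p below 0.05, where 34%, 32.4% and 32.8% of all genes were. Blocking on slide, 1 was called lower at 72 h, Ifne (limma adjusted p = 5.97e-06), named after its values were seen. Ifne was above background on 1 array alone, so that no fold change is given for it either. The log2 fold changes of the 9 ranged from -0.56 to 0.73 (3 h), from -0.61 to 0.28 (12 h) and from -0.98 to 0.28 (72 h). At 72 h Ifna1 had -0.28, Ifna5 -0.55, Ifna9 -0.41, Ifna11 0.28, Ifna14 -0.40, Ifna15 -0.89, Ifnab -0.18 and Ifnk -0.34. The lowest was Ifnl3, a type III interferon known for its action on epithelium, at -0.98 (limma adjusted p = 0.0022). Its fold was below 2 against sham and above 2 against 3 h (-1.19, limma adjusted p = 0.000501). When slide was a block, Ifnl3 had -0.42 against sham (limma adjusted p = 0.267), and the lowest of the 9 were Ifna15 (-0.99) and Ifnk (-0.95). Ifnk had a limma adjusted p of 0.0324 in that fit, with a fold below 2. The Ifna genes are near copies of one another, and their probes may not tell them apart.

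Of 9 receptor and signalling genes, 1 was called against sham, Ifnar2 at 72 h. Ifnar2, a chain of the type I receptor, rose, with a log2 fold change of 1.37 (limma adjusted p = 0.000289), which became 1.15 when slide was a block (limma adjusted p = 0.0535). The other chain, Ifnar1, had -0.42, -0.46 and -0.45 at 3, 12 and 72 h. The 3 h value of Irf9 was 0.85 (limma adjusted p = 0.00585), and its 72 h value was -0.56 (limma adjusted p = 0.0366), both below a fold of 2. Stat2, a transcription factor of the pathway, had 0.42, 0.41 and -0.34 at the 3 times, with adjusted p-values in limma between 0.252 and 0.384. Irf9 and Stat2 had the signs of all 9 interferon stimulated genes, above 0 at 3 h and below 0 at 72 h. Neither Irf9 nor Stat2 was called at these times. With slide as a block the 72 h value of Irf9 was -0.49 ± 0.31 (limma adjusted p = 0.383).

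The other interferon stimulated genes lay mostly above sham at 3 h and 12 h and on both sides of it at 72 h. Of 49 on the array, 5 were called higher at 3 h and 7 at 12 h, with 0 called lower at either time, while 72 h had 5 that rose and 6 that fell. Their median log2 fold changes were 0.45, 0.46 and -0.36. At 3 h the largest rises were those of Cxcl10, a chemokine for T cells (2.55, limma adjusted p = 0.00329), Isg20, an exonuclease (1.55), and Ifi204, a DNA-binding protein (1.54). Slfn1 was not well above background in sham and was at least 2.15-fold higher at 3 h, at least 10.8-fold at 12 h and at least 4.27-fold at 72 h. Ifitm1, of a family that blocks viral entry, had 1.16, 2.34 and 2.04 at the 3 times.

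At 72 h the genes that fell were led by Mx2 (-1.96, limma adjusted p = 0.00234) and Ddx60 (-1.77, limma adjusted p = 0.0352), with Cmpk2, Oas3, Xaf1 and Oas1a, of which Cmpk2, Oas3 and Oas1a are named after their values were seen. The genes that rose were Slfn1, Ifi204 (2.05), Ifitm1, Trim30d (1.04) and Ifitm3. With slide as a block 2 of these 49 genes were called higher, Slfn1 and Ifi204, and 0 lower, with a median of -0.23. Against 12 h, 18 of the 49 were lower at 72 h and 0 higher, led by Oas1g (-2.64), Oas3 (-2.48) and Oas1a (-1.99), enzymes that sense double-stranded RNA. With slide as a block 2 remained past the test, Parp12 (-1.72, limma adjusted p = 0.0448) and Samd9l (-1.48, limma adjusted p = 0.0416).

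**Figure D5:**
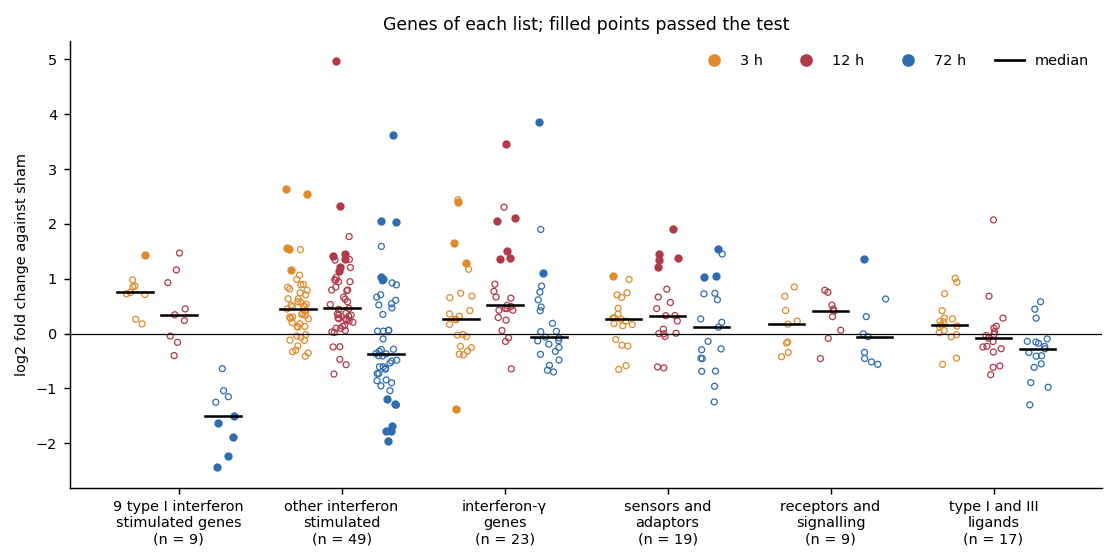
Log2 fold change against sham of each gene in 6 lists at 3, 12 and 72 h, with filled points for called genes and a bar at the median. The 9 genes at 72 h have a median of -1.51, the lowest of the 6 lists, and the 49 other interferon stimulated genes spread from -1.96 to a fitted 3.62 at that time. Ligands not above background are included.

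Of 19 genes in the list of sensors and adaptors, 1, 5 and 3 were called higher at 3, 12 and 72 h and 0 lower. Myd88, the adaptor of most Toll-like receptors, had 1.05 at 3 h and 1.22 at 12 h. At 12 h Zbp1, a sensor of Z-form nucleic acid, had 1.91 (limma adjusted p = 0.016), Tlr4 1.46, Tmem173, which encodes STING, 1.37 and the kinase Ikbke 1.34. At 72 h Tmem173 (1.54), Tlr4 (1.05) and Tlr7 (1.03) were higher than in sham. In the fit with slide as a block Tmem173 stayed past the test, while Tlr4 (1.06, limma adjusted p = 0.284) and Tlr7 (0.77, limma adjusted p = 0.25) did not. Of the 19, 3 were lower and 1 higher at 72 h than at 12 h, and with slide as a block 0 were called. The RNA sensors Ifih1 (-1.42, limma adjusted p = 0.00566) and Dhx58 (-1.58, limma adjusted p = 0.0235) were among those lower at 72 h, along with Zbp1 (-2.19), and their adjusted p-values with the block were 0.13, 0.26 and 0.135.

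Negative regulators and nucleases, 9 genes, were called higher in 4, 4 and 1 cases at the 3 times and lower in 0. Socs3, an inhibitor of cytokine receptors, had 4.40, 4.17 and 3.18, and Socs1, an inhibitor of JAK kinases, had 1.73 and 1.58 at 3 h and 12 h. Trex1, a DNA exonuclease, had 1.13 at 3 h (limma adjusted p = 0.000717). Of the 4 genes that join ISG15 to its targets, 0 were called against sham at any time in limma, with 1, 2 and 2 at an unadjusted p below 0.05. Of these, the ligase Herc6 was lower at 72 h than at 12 h (-1.42, limma adjusted p = 0.0249), a call lost when slide was a block (-1.19, limma adjusted p = 0.252).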

How the data were processed

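RNA of 12 mouse ceca was measured on Agilent SurePrint arrays. The authors deposited the scanner output of Agilent Feature Extraction 11.5.1.1, whose linear intensity per spot is already corrected for background. They also deposited log2 values, which GeneSpring had scaled by the 75th percentile. These log2 values are centred on each row's median and had a Pearson correlation of 1.00 with the recomputed values after the same centring. Probe positions are those of mm9.

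Control spots and outlier spots (53 to 152 per array) were removed, repeated spots were averaged per probe, and the array's 75th percentile was subtracted on the log2 scale. The 4 group means were estimated from 12 arrays by lmFit and eBayes (limma 3.58.1, R 4.3.3). Its p-values were adjusted by Benjamini-Hochberg over all 56605 probes. The probe with the highest mean level stands for a gene. Called means a fold above 2 and an adjusted p below 0.05. The fit was tested on simulated data. A gene not well above background in sham has a lower bound of its fold, from the brighter of its own signal and the dimmest signal above background on each array. Tables were made with Python 3.11.15.

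The 9 genes and all lists were chosen with earlier results of these data known. Lists of ligands, receptors and signalling, sensors, negative regulators, ISG15 conjugation, other interferon stimulated genes, interferon-γ genes and cell markers were written by hand, and 7 symbols on them were not found on the array. The genes named are the 9, their ligands and signalling genes, up to 5 called genes of each list with the largest change and those called against their list, and the 5 genes most alike, and 1 signalling gene of that rule is not reported here. Same-numbered replicates deviated together in 0 of 18 pairs (correlation of at most 0.0866), so the numbers were not taken to pair mice in the reported fit. Alternatives were other normalizations and background corrections, the authors' table, a filter on dim probes, blocks for slide and replicate number, other tests and left-out arrays.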

Additional observations from a re-analysis of the deposited data

Results flagged for a closer look

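The differences between time points that passed the test in limma are repeated here, since each compares the change from sham at 72 h with that at an earlier time. Against 12 h, the log2 level at 72 h was lower by -2.18 for Isg15, -2.68 for Ifit1, -2.62 for Ifit2, -1.97 for Ifit3, -1.09 for Mx1, -1.72 for Irf7, -2.19 for Usp18 and -2.20 for Oasl2. Against 3 h, the difference at 72 h was -2.12 for Isg15, -3.87 for Ifit1, -1.88 for Ifit2, -2.34 for Ifit3, -1.39 for Mx1, -2.36 for Rsad2, -2.06 for Irf7 and -3.21 for Usp18. The 72 h arrays lie on a slide that they share with only 1 of the arrays compared, and with slide as a block the difference of Irf7 against 12 h was the 1 of these that passed. Groups of 3 arrays were too small for a test of single outlying arrays, and each array was left out in turn instead.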

How the results depend on the processing

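For each of the 9 genes, no difference from sham that was called changed sign under any alternative. Of the 5 genes called lower at 72 h, 0 were called with slide as a block. The methods' t-test gave 0 after Benjamini-Hochberg adjustment and Dunnett's test gave 3 after the same adjustment. That t-test pairs same-numbered arrays and rests on 3 differences per probe. With so few differences and adjustment over all probes, its counts of 0 say little about these genes. Between 3 and 6 were called when 1 array was left out, with 3 without sham replicate 1, sham replicate 3, 72 h replicate 1 or 72 h replicate 2. The count against 12 h was 1 with slide as a block, 0 in the adjusted methods' t-test, 0 within the second slide and between 5 and 8 with 1 array left out, the lowest without 72 h replicate 2. The count against 3 h was 0 with slide as a block, 0 in the adjusted methods' t-test and between 7 and 9 with 1 array left out. At 3 h against sham the count of genes called higher was 0 when arrays were quantile normalized, when only probes above background set the 75th percentile, with slide as a block, in the fit of only those groups, both adjusted tests and within the first slide, and 2 with no fold threshold. It was between 0 and 4 with 1 array left out. At 12 h it was 1, Ifit2, under normexp background correction, the filter on dim probes, eBayes with trend and the fit of only those groups, and between 0 and 1 with 1 array left out. Between 12 h and 3 h it was 2 under normexp and between 0 and 1 with 1 array left out. With a replicate block, which treats same-numbered mice as pairs, 1 gene was called at 12 h against sham and 1 between 12 h and 3 h, 9 were called at 72 h against 12 h, and 3 arrays were closest to their own number. Signal over background limits the arrays, and 8 of the 17 ligands were above it in no complete group.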

Other observations

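The gene of interferon-γ, the type II interferon, those of its receptor chains and genes best known as its targets were measured beside the type I genes. Of 23 on the array, 3 were called higher and 1 lower at 3 h, and 6 and 2 higher at 12 h and 72 h, with median log2 fold changes of 0.26, 0.51 and -0.06. Nos2, the inducible nitric oxide synthase, had 2.39, 3.45 and 3.86 at the 3 times, and Gbp2, a GTPase that attacks vacuoles, had 1.29 at 3 h and was called higher at the later times too. With slide as a block 0 of the 23 were called at 72 h against sham in limma, where Nos2 had 4.11 (adjusted p = 0.0574) and Gbp2 had 0.46 (adjusted p = 0.65). Cxcl9, a chemokine for T cells, had 2.11 at 12 h (limma adjusted p = 0.0266), and Cd274, which encodes PD-L1, had 2.05 (limma adjusted p = 0.00808). Ciita, the master regulator of MHC class II genes, was the gene called lower at 3 h (-1.38, limma adjusted p = 0.0379). Between 12 h and 72 h Cxcl9 fell by 2.36, Igtp by 1.38 and Irgm2 by 1.09 on the log2 scale, and each of these calls was lost when slide was a block, at adjusted p-values in limma of 0.132, 0.257 and 0.254.

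The array numbered 2 had all 9 type I genes below the mean of its group in the sham, 3 h and 72 h groups, and 6 of 9 below it at 12 h. Over all probes same-numbered arrays did not deviate together.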
